A study of Mus musculus with 6 samples.

Results

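The genes described here are 31 genes of cholesterol and fatty acid synthesis and of its control, out of 53465 genes in the count matrix. They were chosen by symbol: the enzymes from acetyl-CoA to cholesterol, the sterol sensors and transcription factors that set their transcription, carriers of sterol, the liver X receptors (LXR) with targets of theirs, and enzymes that make fatty acids. Each of the 31 symbols matched 1 Ensembl gene, and all 31 passed the filter on low counts that left 13768 genes for testing. The study injected mice with pentylenetetrazol (PTZ), a blocker of GABA-A receptors that provokes seizures, or with phosphate buffered saline (PBS), and sequenced RNA from endothelial cells of the cerebral cortex. The PTZ group and the PBS group hold 3 libraries each, numbered 1, 2 and 4, all from males aged 8 to 12 weeks with the genotype tie2-Cre; ai9; rpl22HA/HA. In that line Cre is driven by a Tie2 promoter, known to be active in endothelium and some blood cells, ai9 is a fluorescent reporter, and Rpl22-HA is a tagged ribosomal protein. All animals of both groups carry these alleles, and the sources used here do not give the dose of PTZ, the time to collection or the step that isolated cells or ribosomes. The labels do not say whether each library is a separate animal. The p-values thus set the group difference only against the spread of these libraries, and that spread may be technical.

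Cells make cholesterol from acetyl-CoA through mevalonate, farnesyl pyrophosphate, squalene and lanosterol. When membranes of the endoplasmic reticulum are low in sterol, the escort protein Scap carries the transcription factor SREBP2 to the Golgi, where it is cut and released to raise transcription of nearly every enzyme of the route. When sterol is plentiful, Insig proteins hold Scap back, and oxysterols activate LXR, which raises genes of cholesterol export. Adult brain makes its own cholesterol because the blood-brain barrier keeps out plasma lipoproteins, with glia as the main producers, and the endothelium of that barrier also handles sterol on its own account.

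Gene counts per library summed to 11107481 to 15406967, and levels are in CPM, the count scaled to library size after TMM normalisation. Endothelial markers summed over 8 genes to 9767 to 16858 CPM in PTZ libraries and 10240 to 14316 CPM in PBS libraries, and 8 of 8 were above 0 in every library, so the labelled cell type had its markers. RNA with markers of other cell types was present too. The 8 neuron markers summed to 25.4 to 81.5 CPM in PTZ and 16.6 to 69.3 CPM in PBS. The 6 border macrophage markers summed to 684 to 930.5 CPM in PTZ and 631 to 930 CPM in PBS. The 8 microglial markers, all detected in each library, summed to 1497 to 2329 CPM in PTZ and 2286 to 2757 CPM in PBS. Markers of pericytes and smooth muscle (8 genes) summed to 283 to 940 CPM in PTZ and 149 to 463 CPM in PBS, and those of fibroblasts (7 genes) to 87.9 to 288 CPM in PTZ and 92.9 to 150.1 CPM in PBS. The 7 astrocyte markers summed to 65.6 to 208 CPM in PTZ and 51.6 to 142 CPM in PBS. The 8 oligodendrocyte markers summed to 98.0 to 189 CPM in PTZ and 85.6 to 232 CPM in PBS, with Mog and Ermn at 0 in some libraries. Log2 fold changes were positive for 7 of 7 tested markers of pericytes and smooth muscle and for 7 of 7 of fibroblasts, and negative for 8 of 8 of microglia. The part of these markers' cells in the levels of the 31 genes was not tested. In such bulk RNA, fewer cells of a type and less RNA per cell cannot be told apart.

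No difference between PTZ and PBS passed the test for any gene of the set. In edgeR's quasi-likelihood test 0 of 31 passed an adjusted p under 0.05, as did 0 of all 13768 genes tested (0.0%), and 0 of 31 had an unadjusted p under 0.05, against 7.21% of all genes tested (3.83% higher and 3.38% lower in PTZ). DESeq2 and limma-voom also called 0 of the 31 at the adjusted threshold and had 0 at the unadjusted threshold. Adjusted p-values of the 31 ran upward of 0.756. Log2 fold changes of PTZ over PBS were positive for 16 genes and negative for 15, with a median of 0.01, beside 52.7% positive and a median of 0.03 over all genes tested. They ran from -0.48 (Sqle) to 0.79 (Lss). Only Lss reached a 1.5-fold difference, 3.23% of the set, where 25.6% of all genes tested did. The median standard error (SE) was 0.356 for the set and 0.391 for all genes tested. The 95% intervals of the log2 fold changes all included 0. For 14 of 31 genes the interval lay inside a 2-fold difference either way, while for 10 it reached a 2-fold rise and for 11 a 2-fold fall. Changes of that size were thus not excluded for many of them at this spread.

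**Figure D1:**
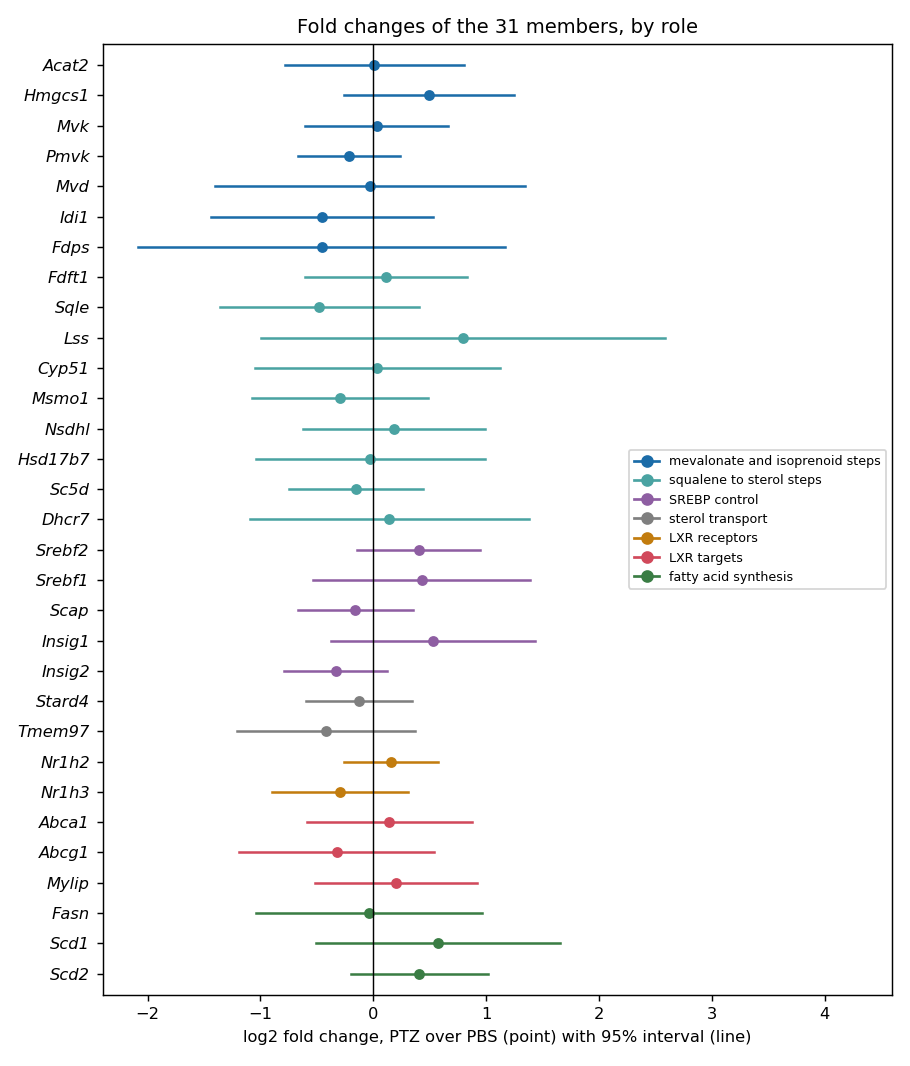
Log2 fold change of PTZ over PBS for each of the 31 genes (point, horizontal axis) with its 95% interval (line) from edgeR's quasi-likelihood fit, coloured by role and ordered down the page along the pathway. All 31 intervals cross 0, and the points run from -0.48 for Sqle to 0.79 for Lss.

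The 19 SREBP2 targets in the set are the 16 enzymes from acetyl-CoA to cholesterol with Insig1, Stard4 and Tmem97. Of these, 9 had a positive and 10 a negative log2 fold change (median -0.03). The 4 LXR targets Abca1, Abcg1, Mylip and Srebf1 had 3 positive values and 1 negative one (median 0.17). Neither list had a member past the threshold, and the medians stand beside 0.03 over all genes tested. The lists' levels in each library were also set beside each other as the median, over the members, of a gene's log2 CPM minus its own mean over the 6 libraries. For SREBP2 targets this deviation was 0.06, -0.43 and 0.28 in PTZ libraries 1, 2 and 4 and 0.15, -0.33 and 0.38 in PBS libraries 1, 2 and 4. For LXR targets it was 0.29, -0.14 and 0.13 in PTZ and -0.11, -0.14 and 0.10 in PBS. By these medians libraries of number 2 were the lowest of each group for both lists. The median over all genes tested stayed between 0.01 and 0.05 in each of the 6 libraries. The LXR targets were split, however. Library 2 was the lowest in both groups for Abca1 and Abcg1, and library 4 for Mylip and Srebf1.

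Promoters of the set were searched for sequence motifs. The sequences did not enter the choice of genes, but many of the genes were listed as known SREBP2 targets. Motifs of SREBP proteins and of factors known to act with them can thus be expected there and are no separate support. RefSeq windows on GRCm38.p6, from 250 bases before to 50 after a transcription start, were at hand for 24 of the 31 genes. The letters CCAAT, the box bound by NF-Y, a factor known to act with SREBP2, occurred on either strand in windows of 19 of 24 genes (79.2%), against 41 of 64 other pathway genes (64.1%) and 41.1% of all 27025 genes with a window. Among SREBP2 targets 14 of 15 had it (93.3%), all but Acat2, and among LXR targets 2 of 3 did. CACGTG, an E-box that SREBP proteins can also bind, was in windows of 6 of 24 genes, 25.0% against 14.1% of other pathway genes and 8.09% of all genes, namely Abca1, Dhcr7, Hsd17b7, Insig1, Sc5d and Scap. TCACNCCAC, a form of the sterol regulatory element that SREBP proteins bind, was in 1 of 24, Hmgcs1, and in 1.44% of all genes. A gene was counted if any of its windows held a match. Counted by window, CCAAT was in 60.6% for the set, 51.2% for other pathway genes and 37.4% for all genes. CACGTG was in 21.2%, 11.9% and 7.15% of windows in the same order. The motifs do not overlap in the windows printed here. A match is not a shown binding site, and a missing match says only that these exact letters are not in the window.

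The stretch upstream of the start is printed for Hmgcs1, which holds CCAAT boxes and the sterol element, for the related sterol sensors Insig1 and Insig2, and for Mvk, which had the most CCAAT boxes. Sequences are from RefSeq (GRCm38.p6). Each reads 5′ to 3′ on the gene's strand, with matches in capitals (ATTGG is CCAAT on the other strand). The stretches are chr13:119690101-119690350 (plus), chr5:28071162-28071362 (plus), chr1:121332590-121332839 (minus) and chr5:114444019-114444268 (plus) in the same order.
Hmgcs1: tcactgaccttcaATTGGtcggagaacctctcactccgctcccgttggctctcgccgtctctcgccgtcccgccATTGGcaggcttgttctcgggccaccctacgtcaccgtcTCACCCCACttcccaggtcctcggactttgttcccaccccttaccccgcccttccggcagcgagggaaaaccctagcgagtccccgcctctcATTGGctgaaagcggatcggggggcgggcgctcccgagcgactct
Insig1: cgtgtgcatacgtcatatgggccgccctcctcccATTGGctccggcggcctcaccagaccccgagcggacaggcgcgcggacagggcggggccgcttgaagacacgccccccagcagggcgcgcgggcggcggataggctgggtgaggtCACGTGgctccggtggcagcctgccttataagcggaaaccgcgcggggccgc
Insig2: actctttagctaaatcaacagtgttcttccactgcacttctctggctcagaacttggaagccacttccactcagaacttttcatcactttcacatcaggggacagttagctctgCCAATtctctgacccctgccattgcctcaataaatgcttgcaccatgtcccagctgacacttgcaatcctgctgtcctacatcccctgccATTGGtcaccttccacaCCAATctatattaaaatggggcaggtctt
Mvk: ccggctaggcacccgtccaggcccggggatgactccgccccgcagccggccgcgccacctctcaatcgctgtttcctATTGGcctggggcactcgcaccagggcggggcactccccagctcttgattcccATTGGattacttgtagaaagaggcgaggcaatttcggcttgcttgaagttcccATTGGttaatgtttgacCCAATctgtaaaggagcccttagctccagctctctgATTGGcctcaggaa
The Hmgcs1 stretch had 3 CCAAT boxes and 1 sterol element, Insig1 had 1 CCAAT box and 1 E-box, and Insig2 had 3 CCAAT boxes and neither of the other motifs. Mvk had 5 CCAAT boxes, 4 of them on the reverse strand and spaced 53 bases apart from one to the next.

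In the first steps, which build mevalonate and join isoprene units, 3 of 7 genes had a positive and 4 a negative log2 fold change, and the groups overlapped for all 7. Hmgcs1 (ENSMUSG00000093930, protein coding, chromosome 13, 119690379 to 119708260, plus strand, GRCm38) encodes the cytosolic synthase that makes HMG-CoA. It stood at 51.6, 21.8 and 55.6 CPM in PTZ libraries 1, 2 and 4, against 33.6, 27.1 and 30.99 CPM in PBS libraries 1, 2 and 4. PTZ libraries 1 and 4 lay above all PBS libraries and PTZ library 2 below all of them. The log2 fold change was 0.49 (SE 0.34, adjusted p = 0.774 in edgeR). Without PTZ library 2 it was 0.77 (unadjusted p = 0.0122, adjusted p = 0.367 in edgeR). The antisense gene Gm48342 shares 12.1% of its exon length. Pmvk (ENSMUSG00000027952, protein coding, chromosome 3, 89454541 to 89469013, plus strand), phosphomevalonate kinase, stood at 120.3, 152 and 119 CPM in PTZ and at 155, 162 and 137 CPM in PBS. Its 2 lowest libraries were PTZ 1 and 4, and the log2 fold change was -0.22 (SE 0.20). Of the other genes, Idi1, the isomerase that activates isoprene units (-0.46, SE 0.44), and Fdps, farnesyl pyrophosphate synthase (-0.46, SE 0.73), had log2 fold changes below 0. Acat2, acetoacetyl-CoA thiolase (0.01, SE 0.36), Mvk, mevalonate kinase (0.03, SE 0.29), and Mvd, mevalonate pyrophosphate decarboxylase (-0.03, SE 0.62), had values near 0 whose sign turned under some settings. Fdps rested on 16 to 33 reads in PTZ libraries and 18 to 48 in PBS libraries, and 26.7% of its exon length is shared with the gene Gm43738 on the same strand, so its level is uncertain.

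From squalene to cholesterol, 5 of 9 enzymes had a positive and 4 a negative log2 fold change, again with overlapping groups for all 9. Sqle (ENSMUSG00000022351, protein coding, chromosome 15, 59315077 to 59331192, plus strand), the monooxygenase that oxidises squalene and a control point of the route, stood at 12.0, 7.64 and 9.14 CPM in PTZ and 14.5, 9.28 and 16.3 CPM in PBS. PTZ library 1 lay within the PBS range and the other PTZ libraries below it, with a log2 fold change of -0.48 (SE 0.40, adjusted p = 0.814 in edgeR). Lss (ENSMUSG00000033105, protein coding, chromosome 10, 76531588 to 76557138, plus strand), which closes the sterol rings to give lanosterol, stood at 6.95, 1.59 and 10.7 CPM in PTZ and 6.93, 1.48 and 2.65 CPM in PBS. Its range within each group exceeded the difference between group means, 6.41 and 3.69 CPM in PTZ and PBS, and the log2 fold change of 0.79 had an SE of 0.81. Without PBS library 1 it was 1.63 and without PTZ library 4 it was 0.20. The other enzymes, with their log2 fold changes, were Fdft1, squalene synthase (0.11, SE 0.32), and Cyp51 (0.04, SE 0.49), Msmo1 (-0.29, SE 0.35), Nsdhl (0.18, SE 0.36) and Hsd17b7 (-0.03, SE 0.46), which strip methyl groups from lanosterol and its products. Sc5d, sterol C5-desaturase (-0.15, SE 0.27), and Dhcr7, which makes cholesterol from its last precursor in one branch (0.14, SE 0.56), completed the group. Fdft1 shares 18.3% of its exon length with Ctsb on the opposite strand. No source used here gives the strand setting of the counting, so reads of that stretch cannot be assigned with certainty.

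**Figure D2:**
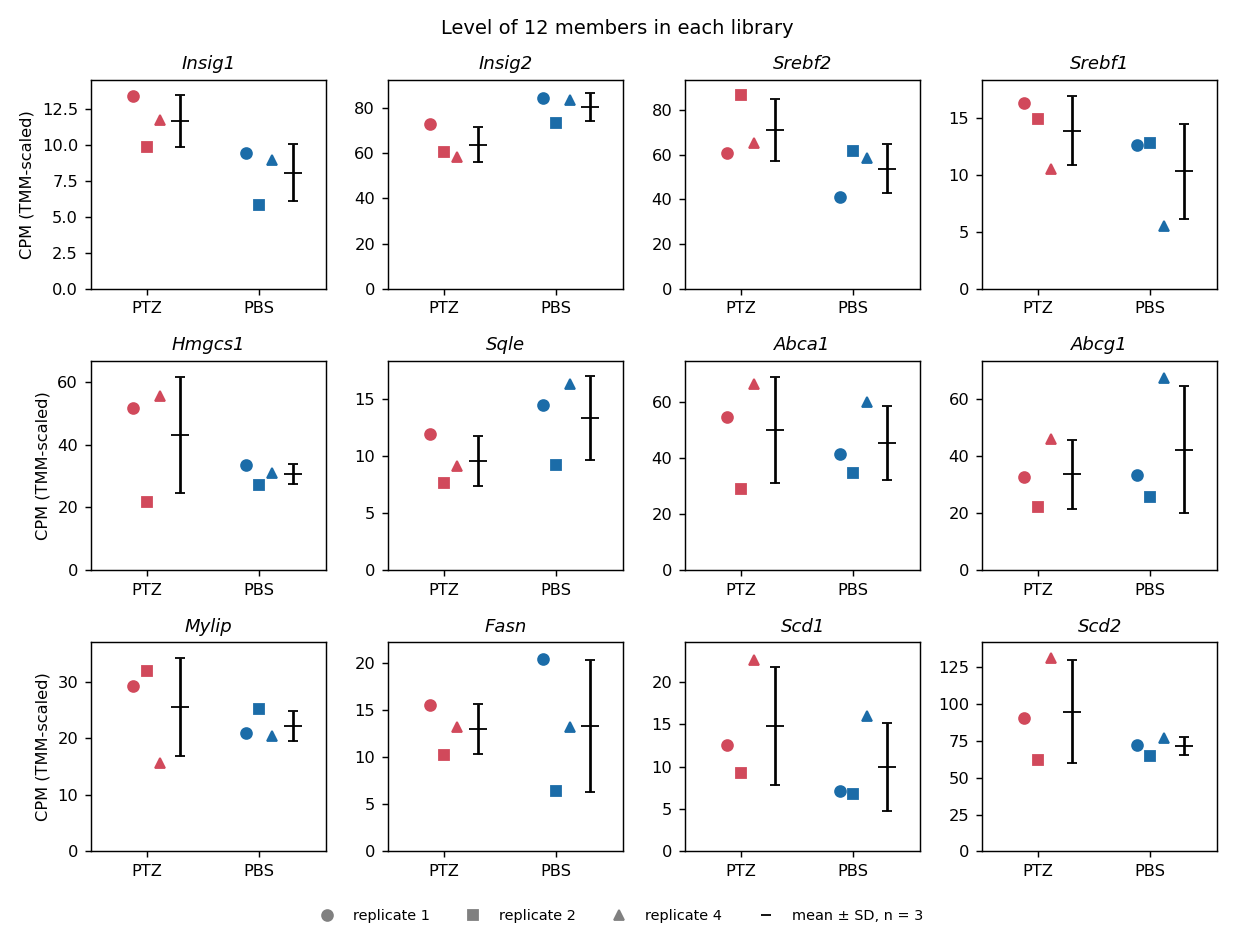
Level in CPM (vertical axes, each from 0) of 12 genes in the PTZ and PBS libraries, with a marker shape for each replicate number and the mean ± SD of n = 3 in black. Insig1 lies higher in all PTZ libraries (9.83 to 13.4 CPM) than in PBS (5.82 to 9.43 CPM), Insig2 lies lower (58.1 to 72.5 against 73.1 to 84.1 CPM), and the groups overlap for the others.

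The Insig sterol sensors had groups that did not overlap, in opposite directions. Insig1 (ENSMUSG00000045294, protein coding, chromosome 5, 28071363 to 28078662, plus strand), a membrane protein that retains Scap and whose gene is itself a target of SREBP2, stood at 13.4, 9.83 and 11.7 CPM in PTZ and 9.43, 5.82 and 8.92 CPM in PBS. The lowest PTZ library lay just above the highest PBS library, and the log2 fold change was 0.53 (SE 0.41, adjusted p = 0.801 in edgeR). Its relative Insig2 (ENSMUSG00000003721, protein coding, chromosome 1, 121304353 to 121332589, minus strand), which retains Scap in the same way, stood at 72.5, 60.3 and 58.1 CPM in PTZ and 84.1, 73.1 and 83.4 CPM in PBS. All PTZ libraries lay below all PBS libraries, with a log2 fold change of -0.33 (SE 0.21, adjusted p = 0.757 in edgeR). With Nr1h2, described below, 3 of 31 genes had groups that did not overlap (9.68%), against 14.3% of all genes tested. Of the 31, Insig1 and Nr1h2 were higher in every PTZ library, against 7.3% of all genes, and Insig2 was lower, against 7.04%. With the authors' scaling Insig2 alone kept its separation (3.23% against 13.9% of all genes). Scaled by total counts Srebf2 alone was parted (3.23% against 11.8% of all genes).

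The ratio of reads between relatives counted in the same library does not depend on scaling. There were 18.5, 16.3 and 20.1 reads of Insig1 per 100 reads of Insig2 in PTZ libraries 1, 2 and 4, against 11.2, 7.97 and 10.7 in PBS libraries 1, 2 and 4. With Insig1 higher and Insig2 lower in every PTZ library this ratio has to part the groups, so it restates those levels and is no separate support. The 4 ratios given were chosen after the values were seen, and the other 3 overlapped. Srebf1 had 26.9, 17.1 and 16.1 reads per 100 of Srebf2 in PTZ and 30.8, 20.9 and 9.42 in PBS. Scd1 had 13.9, 14.9 and 17.2 per 100 of Scd2 in PTZ and 9.90, 10.5 and 20.7 in PBS, and Nr1h3 had 47.1, 51.9 and 26.0 per 100 of Nr1h2 in PTZ and 59.2, 58.9 and 51.2 in PBS.

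Among the other control genes, Srebf2 (ENSMUSG00000022463, protein coding, chromosome 15, 82147181 to 82205379, plus strand), which encodes SREBP2, stood at 60.7, 86.9 and 65.4 CPM in PTZ and 41.2, 61.5 and 58.6 CPM in PBS. PTZ library 1 lay just below PBS library 2 and the other PTZ libraries above all of PBS. The log2 fold change was 0.40 (SE 0.25), with the smallest unadjusted p of the 31 genes, 0.133, and an adjusted p of 0.756 in edgeR. Srebf1, which encodes the SREBP1 proteins that drive fatty acid synthesis and is counted with the LXR targets below, had a log2 fold change of 0.43 (SE 0.43). Scap, the escort of both factors, stood at 30.2 to 36.6 CPM in PTZ and 33.8 to 38.8 CPM in PBS, and its log2 fold change was -0.16 (SE 0.23). The sterol carriers had log2 fold changes below 0. Tmem97 (ENSMUSG00000037278, protein coding, chromosome 11, 78541817 to 78550777, minus strand), the sigma-2 receptor, which affects export of cholesterol from lysosomes, stood at 13.2, 18.1 and 28.9 CPM in PTZ and 33.7, 19.3 and 27.3 CPM in PBS (-0.42, SE 0.36). PTZ libraries 1 and 2 were the lowest and the groups overlapped. Stard4 (ENSMUSG00000024378, protein coding, chromosome 18, 33199355 to 33213862, minus strand), a soluble carrier of sterol between membranes, stood at 93.1, 115 and 137 CPM in PTZ and 131, 117 and 129 CPM in PBS (-0.13, SE 0.21), with PTZ libraries both below and above the PBS range.

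The LXR receptors are nuclear receptors for oxysterols. Nr1h2 (ENSMUSG00000060601, protein coding, chromosome 7, 44549616 to 44553951, minus strand), LXR beta, stood at 104.6, 95.9 and 106 CPM in PTZ and 89.3, 95.6 and 90.3 CPM in PBS. PTZ library 2 and PBS library 2 differed by less than 1 CPM, and the log2 fold change was 0.16 (SE 0.19). Nr1h3 (ENSMUSG00000002108, protein coding, chromosome 2, 91184061 to 91202834, minus strand), LXR alpha, stood at 49.3, 49.7 and 27.6 CPM in PTZ and 52.9, 56.3 and 46.3 CPM in PBS (-0.30, SE 0.27). Its lowest library was PTZ 4, and the other PTZ libraries lay within the PBS range.

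None of the LXR targets passed the test, and their groups overlapped. Abca1 (ENSMUSG00000015243, protein coding, chromosome 4, 53030787 to 53159895, minus strand), which exports cholesterol to apolipoproteins, stood at 54.5, 29.1 and 66.3 CPM in PTZ and 41.4, 34.6 and 59.9 CPM in PBS (0.14, SE 0.33). Abcg1 (ENSMUSG00000024030, protein coding, chromosome 17, 31057675 to 31117988, plus strand), which exports cholesterol to lipoprotein particles, stood at 32.6, 22.2 and 46.2 CPM in PTZ and 33.5, 25.6 and 67.6 CPM in PBS (-0.33, SE 0.39). For both exporters number 4 was the highest and number 2 the lowest library of each group. Mylip (ENSMUSG00000038175, protein coding, chromosome 13, 45389742 to 45412022, plus strand), a ubiquitin ligase that limits uptake of lipoprotein cholesterol, had the reverse order, with 29.2, 31.8 and 15.6 CPM in PTZ and 20.98, 25.2 and 20.4 CPM in PBS (0.20, SE 0.32). Srebf1 (ENSMUSG00000020538, protein coding, chromosome 11, 60199089 to 60222581, minus strand) stood at 16.3, 14.9 and 10.5 CPM in PTZ and 12.7, 12.8 and 5.52 CPM in PBS (0.43, SE 0.43). PTZ libraries 1 and 2 lay above all PBS libraries, and the libraries of number 4 were the lowest of their groups. Adjusted p-values of the 4 targets were 0.857 or more in edgeR.

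In fatty acid synthesis, Fasn (ENSMUSG00000025153, protein coding, chromosome 11, 120805846 to 120824547, minus strand), the synthase of palmitate, stood at 15.6, 10.2 and 13.2 CPM in PTZ and 20.4, 6.42 and 13.2 CPM in PBS (-0.04, SE 0.45). The PBS range enclosed all PTZ libraries. The desaturases Scd1 and Scd2 make monounsaturated fatty acids. Scd1 (ENSMUSG00000037071, protein coding, chromosome 19, 44394455 to 44407879, minus strand) stood at 12.6, 9.23 and 22.6 CPM in PTZ and 7.12, 6.81 and 15.9 CPM in PBS (0.57, SE 0.49). Scd2 (ENSMUSG00000025203, protein coding, chromosome 19, 44293674 to 44306864, plus strand), the main desaturase gene of mouse brain, stood at 90.3, 62.1 and 131 CPM in PTZ and 71.9, 64.9 and 77.2 CPM in PBS (0.41, SE 0.27, adjusted p = 0.773 in edgeR). PTZ library 4 was the highest of all 6 for both, and PTZ library 2 lay below all PBS libraries for Scd2. In PTZ library 4 the astrocyte markers also had their highest sum, 208 CPM against 51.6 to 142 CPM in the other libraries, while the oligodendrocyte markers summed to 189 CPM there and to 232 CPM in PBS library 4. Their part in the desaturase levels was not tested.

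The set varied with the replicate number in both groups. Library 2 was the lowest of its group in PTZ and also in PBS for 18 of 31 genes (58.1%), against 16.8% of all genes tested, a pattern described after the values were seen. Among enzymes from squalene to cholesterol it was so for 8 of 9, the exception being Msmo1, whose PTZ library 2 was the highest of its group. It held for 13 of 19 SREBP2 targets and for all of Fasn, Scd1 and Scd2. Cyp51, the lanosterol demethylase, shows the pattern: 22.7, 7.84 and 15.96 CPM in PTZ libraries 1, 2 and 4, and 18.98, 7.21 and 19.1 CPM in PBS. Mvd ran the opposite way, at 4.76, 24.3 and 9.70 CPM in PTZ and 9.74, 22.6 and 7.26 CPM in PBS. The 70 tested genes of the wider pathway that are not in the set showed it in 20.0%. The share differed between their lists, with 3 of 8 other sterol enzymes (37.5%), 4 of 12 other SREBP control genes (33.3%) and 0 of 10 in each of the lists of other SREBP2 targets and of other LXR targets.

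With the authors' scaling the count was 19 of 31 (61.3%, against 19.9% of all genes) and with total counts 21 of 31 (67.7%, against 29.2%). Among all genes tested the share was 13.1%, 17.1% and 20.1% in the lowest, middle and highest of 3 equal bins by exon length, and 3 of 8, 10 of 15 and 5 of 8 genes of the set in the same bins. By mean level it was 12.1%, 21.5% and 16.7%, with 2 of 2, 14 of 21 and 2 of 8 genes of the set. The same libraries had the lowest TMM factors, 0.864 in PTZ library 2 and 0.9145 in PBS library 2. They also had the highest sums of the endothelial markers, 16858 CPM in PTZ and 14316 CPM in PBS, where the other libraries had 9767 to 10954 CPM. The largest part of these sums was Ly6c1. PTZ library 2 had 8504 CPM of it, beside 3059 and 3971 CPM in PTZ libraries 1 and 4. PBS library 2 had 7306 CPM, beside 4450 and 5012 CPM in PBS libraries 1 and 4. The 8 endothelial markers did not all move this way. Slco1a4 was lowest in library 2 of both groups (646 and 674 CPM), the only 1 of the 8 to be so. Astrocyte markers had their lowest sum of each group in the libraries of number 2, 65.6 CPM in PTZ and 51.6 CPM in PBS. Fibroblast markers did too, with 87.9 CPM in PTZ and 92.9 CPM in PBS. Their sum in PBS library 1 was 95.7 CPM. Library 2 was lowest in both groups for 1 of 6 tested astrocyte markers (16.7%) and 2 of 7 fibroblast markers (28.6%). Among all genes tested the share was 16.8%. Markers of pericytes and smooth muscle summed to 283 CPM in PTZ library 2, the lowest of its group, and to 223 CPM in PBS library 2, the middle of its group. Neuron markers had their highest sum of each group in library 2, 81.5 CPM in PTZ and 69.3 CPM in PBS. Camk2a stood at 40.4 and 27.1 CPM in these libraries and Rbfox3 at 28.5 and 25.6 CPM. Whether marker makeup or scaling had a part in the pattern was not tested.

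**Figure D3:**
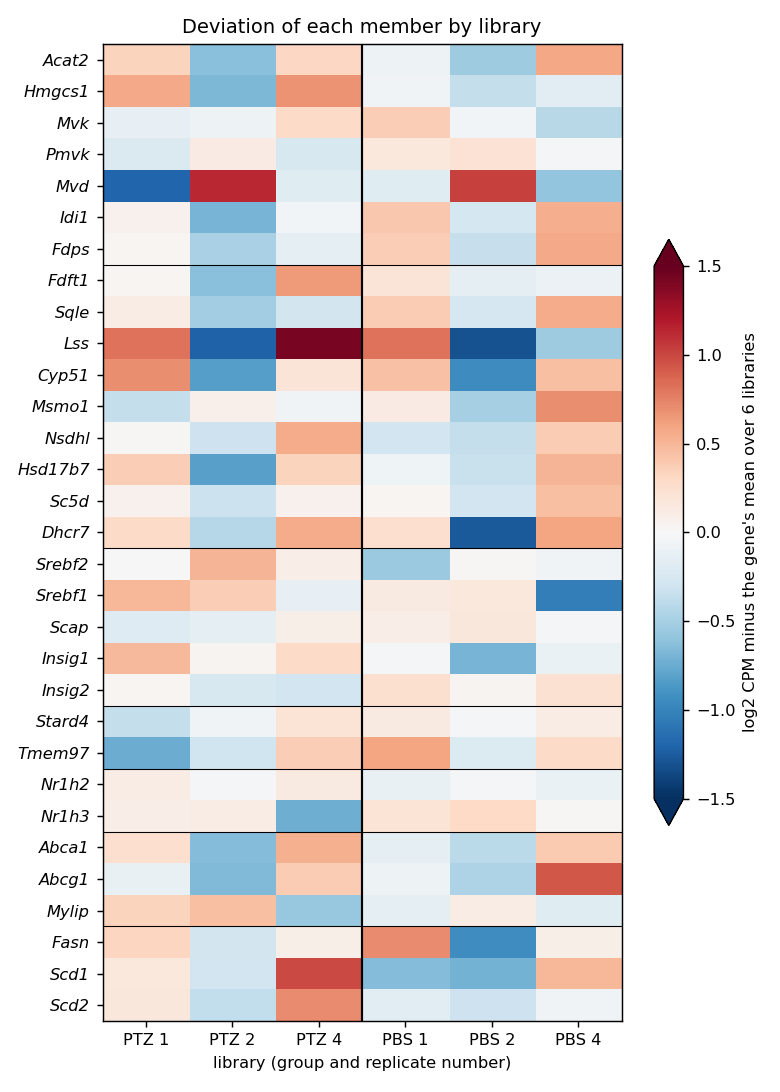
Log2 CPM of each of the 31 genes (rows, in pathway order, lines between roles) in each library (columns, PTZ left of PBS), minus the gene's mean over the 6 libraries; blue is lower and red higher. The columns of PTZ 2 and PBS 2 are blue for most enzymes, while Mvd (1.13 and 1.02) and Pmvk (0.12 and 0.21) are red in both and Msmo1 (0.08) is red in PTZ 2.

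Within the 3 pairs of libraries with the same number, PTZ exceeded PBS in every pair for 7 of 31 genes (22.6%, against 18.5% of all genes tested), which were Srebf1, Srebf2, Nsdhl, Lss, Scd1, Insig1 and Nr1h2. It was lower in every pair for another 7, against 16.7% of all genes: Nr1h3, Insig2, Sqle, Abcg1, Pmvk, Idi1 and Fdps. Enzymes of the route, sensors, receptors and LXR targets thus stood on both sides. With the replicate number as a block in edgeR, 0 of 31 passed at either threshold, and the smallest unadjusted p was 0.0709, again for Srebf2.

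Levels per length, in CPM per kilobase of annotated exon, covered more than 2 orders of magnitude. By the PTZ mean, Pmvk was the highest at 76.1 ± 10.8 in PTZ and 88.4 ± 7.73 in PBS (SD, n = 3 each). The next were Nr1h2 (30.5 ± 1.64 in PTZ and 27.3 ± 0.999 in PBS), Stard4 (20.6 ± 3.94 in PTZ and 22.5 ± 1.34 in PBS), Insig2 (18.3 ± 2.25 in PTZ and 23.1 ± 1.78 in PBS) and Scd2 (17.3 ± 6.37 in PTZ and 13.1 ± 1.13 in PBS), and the last 3 did not differ in level beyond their spread in PTZ. The lowest were Fdps (0.475 ± 0.0906 in PTZ and 0.654 ± 0.208 in PBS) and Lss (0.595 ± 0.425 in PTZ and 0.342 ± 0.266 in PBS), which overlapped each other. Enzymes of one route thus differed widely: Idi1, downstream of Pmvk, stood at 2.24 ± 0.596 in PTZ and 3.08 ± 0.852 in PBS, and Fdft1, which follows Fdps, at 8.18 ± 3.46 in PTZ and 7.57 ± 1.01 in PBS. Srebf2 (9.88 ± 1.94 in PTZ and 7.48 ± 1.53 in PBS) exceeded Srebf1 (2.47 ± 0.537 in PTZ and 1.84 ± 0.742 in PBS). Insig2 exceeded Insig1 (3.76 ± 0.577 in PTZ and 2.60 ± 0.631 in PBS), and Scd2 exceeded Scd1 (3.03 ± 1.42 in PTZ and 2.04 ± 1.06 in PBS). These lengths join the exons of all annotated transcripts, and Lss has 10787 bases of annotated exon.

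**Figure D4:**
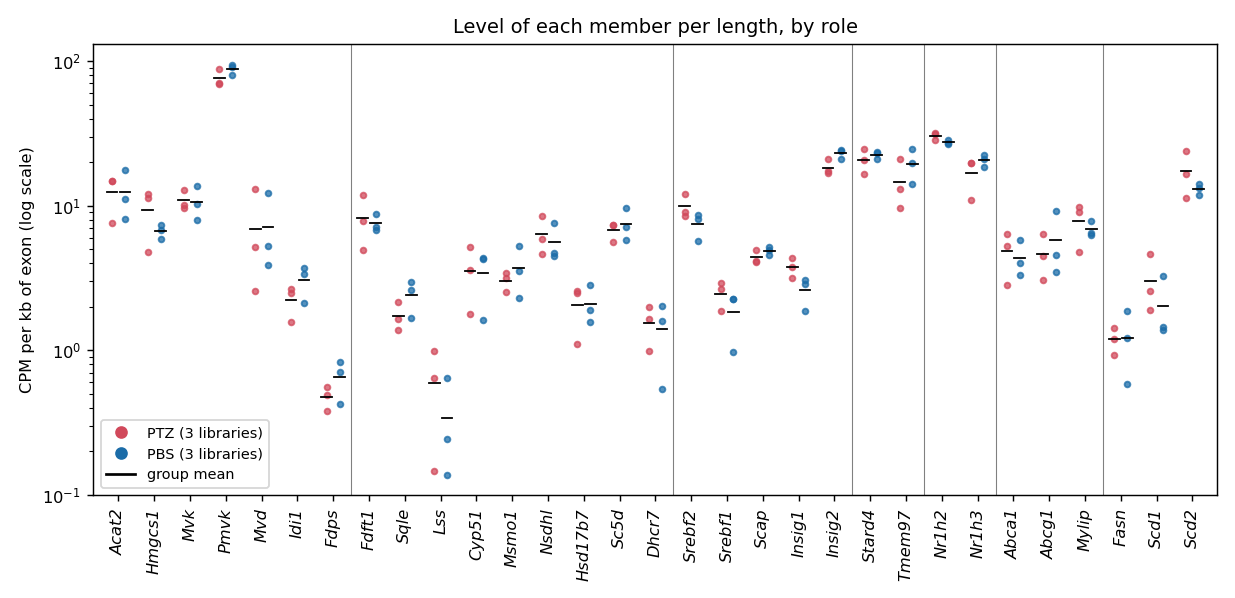
Level per length of the 31 genes in CPM per kilobase of exon (vertical axis, log scale), with 3 PTZ libraries left of 3 PBS libraries for each gene, group means as lines, and genes grouped by role from left to right. Pmvk stands highest, Fdps and Lss lowest, and the groups lie close to each other relative to the distance between genes.

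Of 87 pathway genes outside the set, 70 could be tested, and after adjustment 0 of these passed in edgeR. Their median log2 fold change was 0.03, with 41 of 70 above 0, beside a median of 0.03 and 52.7% above 0 over all genes tested. At the unadjusted threshold 2 of 70 stood higher (Lpin1 and Acsl1) and 1 lower. Of all genes tested 3.83% stood higher and 3.38% lower at that threshold. The groups did not overlap for 7 of 70, against 14.3% of all genes tested. Ebp, a sterol isomerase, had the smallest unadjusted p of the other sterol enzymes, with a log2 fold change of -0.43 (SE 0.23).

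Among the 12 further control genes of the SREBP system, 4 had groups that did not overlap (33.3%, against 14.3% of all genes tested). Rnf145, a ubiquitin ligase that acts on Scap, stood at 13.8, 6.65 and 10.4 CPM in PTZ and 19.3, 15.5 and 19.3 CPM in PBS (-0.81, SE 0.37), so that all PTZ libraries lay below the PBS range. Its unadjusted p in edgeR was 0.0558, and 0.0340 with the replicate number as a block. Rnf139, a related ubiquitin ligase named after its values were seen, was also lower in every PTZ library (-0.64, SE 0.32).

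Among other SREBP2 targets and uptake genes, Lpin1, a phosphatidate phosphatase, stood at 73.8, 53.9 and 72.7 CPM in PTZ and 27.9, 40.2 and 52.4 CPM in PBS. It was higher in all PTZ libraries (0.74, SE 0.27, unadjusted p = 0.0226, adjusted p = 0.648 in edgeR). Gramd1c, a sterol transfer protein with 1 to 29 reads a library, had a log2 fold change of 0.98 (SE 1.19), which was 3.03 without PBS library 1 and 0.40 without PTZ library 4. In fatty acid and triglyceride synthesis, Acsl1, which activates long-chain fatty acids, stood at 14.9, 17.0 and 32.5 CPM in PTZ and 11.6, 13.7 and 9.07 CPM in PBS (0.90, SE 0.39, unadjusted p = 0.0417, adjusted p = 0.690 in edgeR), also with no overlap. With the replicate number as a block its unadjusted p was 0.0643, and without PTZ library 4 it was 0.268. For Lpin1 the unadjusted p was 0.0131 with the block and 0.00905 to 0.0966 with 1 library left out. Fads3, a fatty acid desaturase family member with low counts and groups that did not overlap, had a log2 fold change of 1.55 (SE 0.85). Among LXR targets outside the set, Smpdl3a, a phosphodiesterase (0.40, SE 0.21), and Apoc1, an apolipoprotein (0.88, SE 0.75), had the smallest unadjusted p-values, 0.0911 and 0.268. Ch25h, which makes an oxysterol that suppresses SREBP processing, stood at 187, 389 and 99.5 CPM in PTZ and 202, 798 and 138 CPM in PBS. Library 2 was the highest of each group, and the log2 fold change was -0.75 (SE 0.64, unadjusted p = 0.267 in edgeR). With the block it was -0.54 with an unadjusted p of 0.0317, and without PBS library 2 it was 0.38. Cyp7b1, which breaks down oxysterols, had 1.90 (SE 0.95) on 0.302 to 5.51 CPM.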

How the data were processed

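RNA of brain endothelial cells was measured in 6 libraries, 3 from PTZ and 3 from PBS mice, grouped by the sample titles. The authors deposited raw read counts per Ensembl gene (53465 genes, whole numbers, per the file headers), with 5 summary rows that name no gene; these made up 16.1% to 22.9% of reads and stayed out of library sizes and tests. They also deposited a scaled signal per library, equal to the count divided by 1 factor per library within 0.01 reads, used here as an alternative scaling. TopHat2 2.1.1, CASAVA, HTSeq, edgeR and the build GRCm38 appear in the submitters' processing notes, with no roles. No source used here gives the annotation release or the strand setting.

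Of 34777 genes with any read, 13768 passed filterByExpr with its minimum count of 10 and minimum total of 15. TMM scaling and the quasi-likelihood test of edgeR 4.0.16 (R 4.3.3) followed, with group as the factor, 2-sided, with Benjamini-Hochberg adjustment over all genes tested and a threshold of 0.05. DESeq2 1.42.0 and limma-voom (limma 3.58.1) were alternatives. The common dispersion was 0.221. SE values derive from the fold change and its statistic, and 95% intervals from the SE and the fit's degrees of freedom. Deviations by library used log2 CPM with a prior count of 2. Replicates differed by more than sampling noise (chi-square per degree of freedom 43.8 to 99.1). Coordinates, exon lengths and overlaps are from GENCODE M21 (GRCm38), promoters from RefSeq. The test was also run on counts simulated from the means, library sizes and dispersions of these data.

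Replicate numbers 1, 2 and 4 come from the titles. Same-numbered libraries had correlations of 0.167, 0.197 and 0.217 in their deviations from the group mean, above the 0.1 set for taking the numbers as pairs. Libraries of different numbers had -0.127 to -0.062. Deviations from a group mean sum to 0 within the group, so these negative values are partly fixed by the positive ones. They are no separate support for pairs. The labels give no block, so the block by number entered as an alternative, not in the main design. The SE values, intervals and p-values of the main fit thus do not take such pairs into account.

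The 31 genes and all lists were chosen with earlier results of these data known. Values in every library are printed for the 2 genes per role with the smallest unadjusted p, the LXR targets, Srebf2, Insig1, Hmgcs1, Sqle, Fasn, Scd1 and Scd2. Of the other pathway lists up to 2 genes with the smallest p are named, and some genes that this rule or the lists hold are not reported here. Faxdc2 matched no symbol and Hsd3b7 had no reads.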

Additional observations from a re-analysis of the deposited data

How the results depend on the processing

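Of the 31 genes, 0 passed after adjustment in the main edgeR test or in any of the 15 alternatives run, which include leaving out each library in turn. The count at an unadjusted p under 0.05 was 0 to 2 when 1 library was left out, the 2 being Scd2 and Hmgcs1 without PTZ replicate 2. Of all 14728 genes tested in that setting, 673 stood higher and 955 lower at the same threshold. The count in the set was 1, Hmgcs1, without replicate 2 in both groups, an alternative added after seeing the data. There 706 of all 14378 genes tested stood higher and 751 lower. Over all genes the count of calls, 0 in the main test, was 121 with no low-count filter, 76 in DESeq2 and 1 in limma-voom. It was 0 to 8 when 1 library was left out, the 8 without PBS replicate 2, and 3 without replicate 2 in both groups. With the replicate block, edgeR still called 0 genes. At the unadjusted threshold the block changed the call of none of the 31 genes, but Acsl1 no longer passed it, while Ch25h and Rnf145 now did. Added after seeing the data, the block gave 207 calls in DESeq2 and 13 in limma-voom, none of them among the 31. The median log2 fold change of SREBP2 targets ran from -0.24 to 0.05 and that of LXR targets from 0.09 to 0.17 when 1 library was left out. For 16 of 31 genes the sign held in all 15 alternatives. The cause of the following turns of sign was not tested.

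Acat2 was -0.00212 with DESeq2 size factors, -0.0543 with the authors' scaling, -0.0306 with no low-count filter and -0.00228 in DESeq2. Under the authors' scaling and with no filter Mvk was -0.0407 and -0.0126 and Cyp51 -0.0398 and -0.0101. Fasn was 0.0180 in limma-voom, 0.0810 with the replicate block and 0.0719 with the block in DESeq2. Without replicate 2 in both groups Hsd17b7 was 0.10 and Dhcr7 -0.00601. With 1 library left out the log2 fold change ran from -0.25 to 0.33 for Acat2, -0.17 to 0.26 for Mvk, -0.90 to 0.58 for Mvd, -0.26 to 0.33 for Fdft1, -0.34 to 0.31 for Cyp51, -0.57 to 0.0277 for Msmo1, -0.0941 to 0.43 for Nsdhl, -0.24 to 0.23 for Hsd17b7 and -0.35 to 0.0322 for Sc5d. It ran from -0.27 to 0.48 for Dhcr7, -0.28 to 0.00569 for Stard4, -0.12 to 0.38 for Abca1, -0.63 to 0.16 for Abcg1, -0.0321 to 0.45 for Mylip, -0.41 to 0.40 for Fasn and -1.45 to 0.38 for Ch25h. Fdps had 16 to 48 reads in a library and Lss 15 to 171, so few reads stand behind some of their values.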
